A study of Aspergillus niger with 24 samples.

Results

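A set of 5 Aspergillus niger genes that serve the breakdown of D-galacturonic acid was followed across 24 RNA-sequencing libraries. They were chosen by gene ID, as 5 of the 11846 rows of the deposited table, and are the enzyme genes gaaA (NRRL3_05650), gaaB (NRRL3_06890) and gaaC (NRRL3_05649), the activator gene gaaR (NRRL3_08195) and the repressor gene gaaX (NRRL3_08194). The libraries were made from hyphae of strain CICC2629, once as wild type (WT) and once as a strain that expressed the lipase TLL. Cultures of both were kept at 28 °C on potato dextrose agar and are labelled by days 1 to 4, with 3 libraries in each of 8 groups. The labels do not state the promoter that drives the lipase, how many clones were used, or what a replicate is (a culture or a repeat of one). A p-value here therefore reflects how far these libraries scatter, and that scatter may be technical. None of the IDs is named as the lipase, so its transcript gives no check of the strain labels.

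D-galacturonic acid is the main building block of pectin, and A. niger uses it as a carbon source. GaaA reduces it to L-galactonate, GaaB removes water from that product, and GaaC splits the resulting keto-deoxy acid into pyruvate and L-glyceraldehyde. GaaR is a zinc-cluster activator of the enzyme genes, and GaaX holds GaaR inactive until an intermediate of the pathway builds up. In A. niger gaaA and gaaC lie side by side and are read from a shared promoter region, and gaaR and gaaX are neighbours too. In the deposited IDs both pairs are also consecutive. Other genes of the pathway were not analysed here, since the sources used here pair no further ID with a name.

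The table is in TPM (transcripts per unit of library total), which divides reads by gene length and scales each library to the same total. Library totals were 999999 to 1000000 TPM, and 7918 to 8935 genes reached 1 TPM in a library. Read numbers cannot be had from TPM, and library depth is therefore unknown. All 5 genes reached 1 TPM in all 24 libraries and were among the 9558 genes tested. Over the 9553 other genes tested, replicates correlated at 0.983 to 0.992 in the groups of days 2 to 4, but only at 0.923 to 0.990 in WT day 1 and 0.920 to 0.989 in TLL day 1. WT day 1 replicate 1 and TLL day 1 replicate 3 agreed least with their own groups, with mean correlations of 0.924 and 0.935, and correlated with each other at 0.972. Results that rest on them are given with and without them. By the same measure TLL day 3 lay closer to WT day 4 (mean correlation 0.971) than to WT day 3 (0.901). TLL day 4 lay far from both, at 0.910 with WT day 3 and 0.888 with WT day 4, so WT day 3 is not a close match for it. Strain differences are given on the labelled days and across them. In bulk RNA, fewer hyphae of a kind and less RNA per hypha cannot be told apart.

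The enzyme genes were at their highest on day 1, in 4 of its 6 libraries, and stood lower on later days. The level of gaaA, the reductase that opens the pathway, was 7.99, 70.8 and 68.14 TPM in WT day 1 replicates 1, 2 and 3. In TLL day 1 it was 20.58, 18.11 and 7.77 TPM. Day 2 gave 7.03, 7.62 and 5.79 TPM in WT, and 7.38, 8.82 and 8.2 TPM in TLL. The 2 libraries that agreed least with their groups held gaaA at its day 2 level, and the other 4 held it above every later library. On day 3 gaaA stood at 6.98, 4.83 and 7.79 TPM in WT and 4.66, 3.28 and 4.13 TPM in TLL. On day 4 it stood at 5.19, 5.25 and 4 TPM in WT and 3.03, 2.27 and 2.17 TPM in TLL, its lowest group. By group mean gaaA ran from WT day 1 down through TLL day 1, TLL day 2, WT day 2, WT day 3, WT day 4 and TLL day 3 to TLL day 4. Each neighbouring pair in that order overlapped, except TLL day 3 and TLL day 4. The share of all genes without overlap between these groups was not computed.

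For gaaB, the dehydratase of the second step, the level in WT day 1 was 10.11, 203.3 and 163.53 TPM, a 20.1-fold range within one group. In TLL day 1 it was 50.35, 41.88 and 5.62 TPM. Again WT replicate 1 and TLL replicate 3 were low and the other 4 libraries lay above all later ones. Day 2 gave 10.41, 9.9 and 9.45 TPM in WT and 15.19, 16.98 and 11.61 TPM in TLL. Day 3 gave 15.03, 11.36 and 27.32 TPM in WT and 11.49, 11.89 and 9.06 TPM in TLL. Day 4 gave 15.71, 16.42 and 15.06 TPM in WT and 3.34, 3.35 and 3.73 TPM in TLL. TLL day 4 therefore lay below every other library, and in the order of group means it was the only group that did not overlap its neighbour, WT day 2. The share of all genes that stood apart in TLL day 4 in this way was not computed.

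The aldolase gene gaaC followed the same course, at 4.96, 85.44 and 77.96 TPM in WT day 1, while TLL day 1 held 24.37, 17.29 and 4.23 TPM. Between day 2 and day 4 its WT libraries ranged from 3.25 to 6.01 TPM, with group means of 4.02 ± 0.699, 5.09 ± 0.496 and 4.62 ± 1.20 TPM (SD, n = 3). Its TLL libraries averaged 4.82 ± 0.784, 3.45 ± 0.951 and 2.06 ± 0.740 TPM on days 2, 3 and 4 (SD, n = 3). Neighbours in the order of its 8 group means overlapped throughout. Among all 11846 genes the WT day 1 means of gaaA, gaaB and gaaC lay at the 78.3rd, 90.04th and 80.4th percentile, and the TLL day 4 means at the 32.3rd, 35.3rd and 31.0th.

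**Figure D1:**
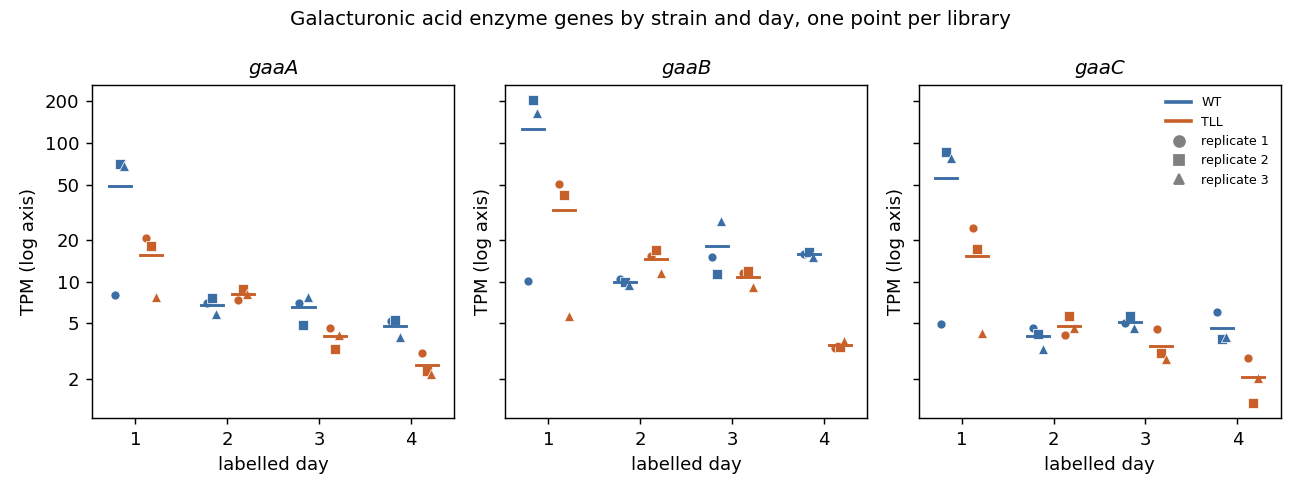
TPM (log axis) of gaaA, gaaB and gaaC by labelled day, with one point per library, a marker shape per replicate number and a bar at each group mean (n = 3). On day 1 the circle of WT and the triangle of TLL sit with the later days, while the other 4 libraries lie above them, up to 203.3 TPM for gaaB.

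Over all 24 libraries the regulator genes moved on a smaller scale than the enzyme genes. By median gaaR was the lowest of the 5 genes (4.335 TPM). The median of gaaX (11.3 TPM) lay above those of gaaA (7.005 TPM) and gaaC (4.575 TPM) and near that of gaaB (11.75 TPM). The activator gene gaaR stood at 3.76, 4.33 and 4.82 TPM in WT day 1, at 4.18, 4.34 and 2.71 TPM in WT day 2, at 9.13, 10.36 and 7.51 TPM in WT day 3, and in WT day 4 at 3.85, 4.63 and 5.47 TPM. In the TLL strain it stood at 1.58, 2.78 and 5.82 TPM on day 1, 5.12, 3.51 and 5.12 TPM on day 2, 3.44, 2.55 and 3.59 TPM on day 3 and 4.38, 3.91 and 4.34 TPM on day 4. The 3 WT day 3 libraries were the highest of all 24, and no other neighbours in the order of group means were apart. The share of all genes that stood apart in WT day 3 in this way was not computed. Between TLL day 3 and WT day 3 alone, 69.0% of all genes did not overlap. The enzyme genes were not at their highest in WT day 3. Outside day 1 it did hold the highest group means of gaaB (17.9 TPM) and gaaC (5.09 TPM), each overlapping the next group, but not of gaaA.

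The repressor gene gaaX was the steadiest of the 5, from 7.61 to 16.49 TPM over all libraries, a 2.17-fold range, against 6.56-fold for gaaR, 32.6-fold for gaaA, 60.9-fold for gaaB and 64.2-fold for gaaC. Both ends of its range lay in WT day 1, at 7.61 TPM in replicate 1 and 16.49 TPM in replicate 3, with 13.63 TPM in replicate 2. Its level in TLL day 1 was 9.05, 8.81 and 8.98 TPM, the lowest group mean. Group means of gaaX rose no higher than 14.2 ± 2.33 TPM (SD, n = 3), in TLL day 4, where the libraries held 11.76, 16.42 and 14.3 TPM.

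**Figure D2:**
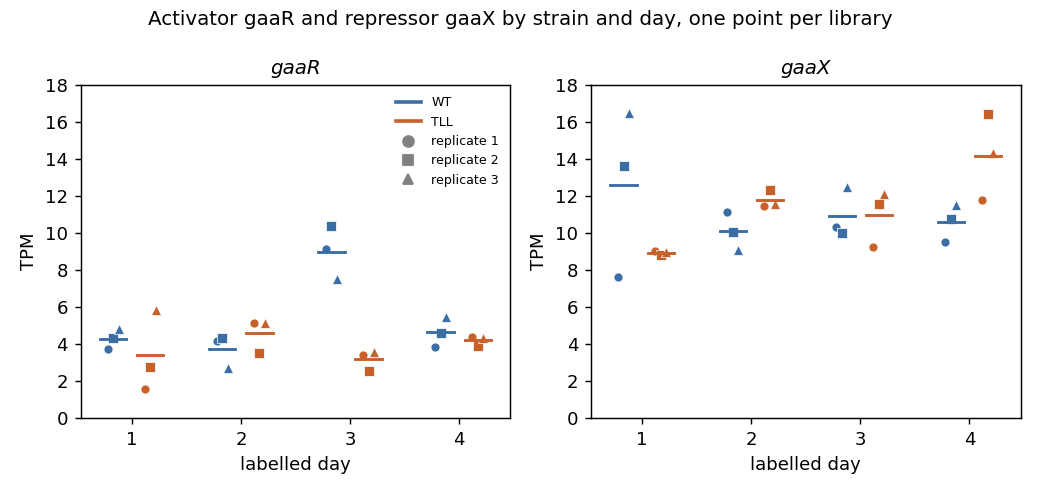
TPM of the activator gene gaaR and the repressor gene gaaX by labelled day, with one point per library, a marker shape per replicate number and a bar at each group mean (n = 3). For gaaR the 3 WT day 3 libraries (7.51 to 10.36 TPM) lie above all others, whose highest is 5.82 TPM.

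Across days the enzyme genes changed in both strains and gaaR in WT. The test was limma's, on log2(TPM + 1) values, with one spread for each gene shared by all 8 groups, and called at a Benjamini-Hochberg adjusted p under 0.05 over all 9558 genes. In WT the F test called 4 of the 5 genes, against 77.2% of all genes. The limma adjusted p was 0.000439 for gaaA, 0.0180 for gaaB, 0.00261 for gaaC, 0.00314 for gaaR and 0.689 for gaaX. In TLL it called 3 of 5, against 80.8% of all genes, with limma adjusted p of 0.00369 for gaaA, 0.0406 for gaaB, 0.0382 for gaaC, 0.241 for gaaR and 0.0524 for gaaX. In WT the call of gaaB was lost without day 1 replicate 2 (limma adjusted p = 0.166) or replicate 3 (0.143). There 73.2% and 74.1% of all genes were called. In TLL leaving out 1 library ended the call of gaaB in 8 of 12 fits and that of gaaC in 6 of 12 (limma adjusted p up to 0.103 and 0.182). Both were lost without day 1 replicate 1 or 2 or day 4 replicate 2 or 3. The call of gaaB was also lost without day 2 replicate 1 or 2, day 3 replicate 1 or day 4 replicate 1, and that of gaaC without day 3 replicate 2 or 3. A pseudocount of 5 TPM ended both (limma adjusted p = 0.0946 and 0.104). All 5 genes were called in both strains in a fit without the 2 day 1 libraries that agreed least with their groups, which was chosen after seeing the data, where 87.5% of all genes were called in WT and 89.7% in TLL.

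The step from day 1 to day 2 lowered the 3 enzyme genes in WT, where 34.5% of all genes were called. The log2 change was -2.19 for gaaA (SE 0.51, limma adjusted p = 0.00218), -2.72 for gaaB (SE 0.77, limma adjusted p = 0.00955) and -2.79 for gaaC (SE 0.68, limma adjusted p = 0.00311), beside a median of 0.068 over all genes. Day 2 libraries lay below all day 1 libraries for gaaA and gaaC, but not for gaaB. The gap was narrow, from at most 7.62 and 4.61 TPM on day 2 to 7.99 and 4.96 TPM in WT day 1 replicate 1. The share of all genes without overlap was not computed for this step. Without WT day 1 replicate 1 the changes were -3.18, -4.07 and -4.05. There gaaX, at -0.23 and not called in the fit on all libraries, was called at -0.53 (limma adjusted p = 0.00771), against 45.5% of all genes. Without WT day 1 replicate 2 or replicate 3 the call of gaaB was lost (limma adjusted p = 0.0736 and 0.0633). There 28% and 28.7% of all genes were called. A fit on the 6 compared libraries alone called none of the 3 (limma adjusted p = 0.0839, 0.105 and 0.0829), against 21.1% of all genes. For the same step in TLL limma called 0 of the 5 genes, 0 passed an unadjusted p under 0.05, and 52.0% of all genes were called (57.5% unadjusted). Its estimates for gaaA, gaaB and gaaC were -0.75, -0.66 and -1.22 (SE 0.51, 0.77 and 0.68). Without the 2 day 1 libraries that lay apart they were -1.16, -1.60 and -1.90, with limma adjusted p of 1.31e-05, 5.83e-06 and 3.56e-07. In that fit gaaR and gaaX were called higher on TLL day 2, at 0.82 and 0.36 (limma adjusted p = 0.00169 and 0.041), and 66.9% of all genes were called. For the WT step the same fit called gaaX the other way, at -0.53 (limma adjusted p = 0.00612), where 53.5% of all genes were called. Quantile normalization of all libraries called gaaA and gaaC in the TLL step (limma adjusted p = 0.0422 and 0.0305), where 58.3% of all genes were called. It turned the uncalled TLL estimates of gaaR and gaaX below 0, from 0.45 to -0.33 and from 0.36 to -0.14. In the WT step it called gaaR lower on day 2, at -0.56 (limma adjusted p = 0.0189), where 41.1% of all genes were called.

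The activator gene rose and fell again in WT around day 3. Its log2 change was 1.08 from day 2 to day 3 (SE 0.25, limma adjusted p = 0.00125) and -0.82 from day 3 to day 4 (SE 0.25, limma adjusted p = 0.00957). It was the 1 member called in either step, against 53.6% and 53.4% of all genes. Leaving out any one library of these groups kept both calls. In TLL the step from day 2 to day 3 called 0 of 5 genes, against 17.9% of all genes, and the step from day 3 to day 4 called 0 of 5, against 47.4%. Without day 1 in the fit, chosen after seeing the data, gaaA fell by 0.87 on the log2 scale between TLL day 2 and day 3 (limma adjusted p = 0.000834), in a step where 33.5% of all genes were called. In the same fit gaaA, gaaB and gaaC fell by 0.52, 1.39 and 0.55 between TLL day 3 and day 4 (limma adjusted p = 0.0129, 2.73e-05 and 0.0251) and gaaX rose by 0.34 (limma adjusted p = 0.0426), against 61.7% of all genes called.

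The spread of the enzyme genes differed by day, which bears on every test above and below. On the log2(TPM + 1) scale the SD within WT day 1 was 1.72 for gaaA, 2.34 for gaaB and 2.19 for gaaC, and within TLL day 1 it was 0.70, 1.64 and 1.20. Within the 6 later groups it was 0.11 to 0.31 for gaaA, 0.059 to 0.61 for gaaB and 0.12 to 0.36 for gaaC. The shared spread is therefore set largely by day 1 for these 3 genes, and the intervals at days 2 to 4 are wide beside the libraries they describe. The regulator genes share this limit in part. For gaaR the SD was 0.71 within TLL day 1 and 0.15 within WT day 1, against 0.073 to 0.29 in the later groups. For gaaX it was 0.53 within WT day 1 and 0.018 within TLL day 1, against 0.053 to 0.23 later.

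At day 1 limma called 0 of the 5 genes between strains, against 7.31% of all genes, and no gene of the 5 had strains that did not overlap, against 12.6% of all genes. Mean levels were 49.0 ± 35.5 TPM in WT and 15.5 ± 6.80 TPM in TLL for gaaA, 125.6 ± 102.0 and 32.6 ± 23.8 TPM for gaaB, and 56.1 ± 44.5 and 15.3 ± 10.2 TPM for gaaC (SD, n = 3 each). The log2 changes, TLL minus WT, were -1.21 (SE 0.51, limma adjusted p = 0.157), -1.56 (SE 0.77, limma adjusted p = 0.232) and -1.36 (SE 0.68, limma adjusted p = 0.238). At an unadjusted p under 0.05, 1 of the 5 genes passed, and 23.3% of all genes did. These values turned on single libraries. Without WT replicate 1 the changes were -2.20, -2.91 and -2.62 and were called (limma adjusted p = 1.48e-05, 0.000853 and 0.000189), as was gaaX at -0.69 (limma adjusted p = 0.00391), where 13.5% of all genes were called. Without TLL replicate 3 gaaR was called at -0.76 (limma adjusted p = 0.0139), where 23.1% of all genes were called. Without both, 5 of 5 genes were called lower in TLL, where 25.9% of all genes were called. The changes were then -1.79 for gaaA, -1.97 for gaaB, -1.94 for gaaC, -0.83 for gaaR and -0.69 for gaaX. That comparison holds 2 libraries a strain. The labels do not settle whether the 2 libraries left out were exchanged between strains or sampled at another time, which was not tested, and every day 1 strain difference and step from day 1 to day 2 carries that doubt.

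At day 2 limma called 0 of 5 genes and 0 passed an unadjusted p under 0.05. Of all genes 9.71% were called, and 26.9% passed unadjusted. The estimates were all above 0, at 0.23 for gaaA, 0.50 for gaaB, 0.21 for gaaC, 0.24 for gaaR and 0.21 for gaaX, where the median over all genes was 0.19. That median was 0.02 after median-of-ratios scaling. The estimates were then 0.050, 0.31, 0.047, 0.078 and 0.022, and under quantile normalization 0.000014, 0.30, 0.0051, 0.051 and -0.017. With library weights gaaR stood at -0.061 and gaaB was called (0.58, limma adjusted p = 0.019), where 55.3% of all genes were called. The TLL libraries lay above all WT libraries for gaaB and gaaX, against 39.5% of genes that did not overlap. The 95% intervals reached from -0.83 to 1.29 for gaaA and from -1.11 to 2.11 for gaaB.

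At day 3 the activator gene was lower in TLL, at 3.19 ± 0.562 TPM against 9.00 ± 1.43 TPM in WT (SD, n = 3 each), a 2.82-fold difference of the means. Its log2 change was -1.25 (SE 0.25, limma adjusted p = 0.000406), and it stayed called in each of the 12 other fits and without any one of the 6 libraries (-1.36 to -1.14). It was the 1 gene of 5 called, against 47.1% of all genes. The median change over all genes was 0.19, and -0.0068 after median-of-ratios scaling. The repressor gene stood at 11.0 ± 1.51 TPM in TLL beside 10.9 ± 1.36 TPM in WT (SD, n = 3 each), a log2 change of 0.0016 (95% interval -0.40 to 0.40), which was -0.21 under median-of-ratios scaling. The enzyme genes were not called, at -0.57 for gaaA, -0.60 for gaaB and -0.47 for gaaC (limma adjusted p = 0.377, 0.555 and 0.601). The strains did not overlap for gaaA, gaaC and gaaR, against 69.0% of all genes. Without day 1 in the fit gaaA and gaaB were called (limma adjusted p = 0.00766 and 0.0233) and gaaC was not (0.0539), where 60.5% of all genes were called.

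At day 4 the dehydratase gene gaaB was lower in TLL, at 3.47 ± 0.222 TPM against 15.7 ± 0.680 TPM in WT (SD, n = 3 each), a 4.53-fold difference of the means. Its log2 change was -1.90 (SE 0.77, limma adjusted p = 0.0435), and it was the 1 gene of 5 called, against 54.1% of all genes. The call did not survive leaving out any one of the 6 libraries (limma adjusted p up to 0.0927), though the change stayed between -1.94 and -1.87. The reductase gene gaaA was at 2.49 ± 0.470 TPM in TLL beside 4.81 ± 0.705 TPM in WT, and gaaC at 2.06 ± 0.740 beside 4.62 ± 1.20 TPM (SD, n = 3 each). Their log2 changes were -0.74 (SE 0.51, limma adjusted p = 0.235) and -0.89 (SE 0.68, limma adjusted p = 0.286). The TLL libraries lay below all WT libraries for all 3 enzyme genes and above them for gaaX, against 68.1% of all genes that did not overlap. Without day 1 in the fit all 4 were called, with SE of 0.17, 0.21, 0.20 and 0.14 and limma adjusted p of 0.00103, 6.33e-07, 0.00091 and 0.0226 for gaaA, gaaB, gaaC and gaaX, where 65.9% of all genes were called. The log2 change of the activator gene was -0.11 (95% interval -0.63 to 0.42).

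**Figure D3:**
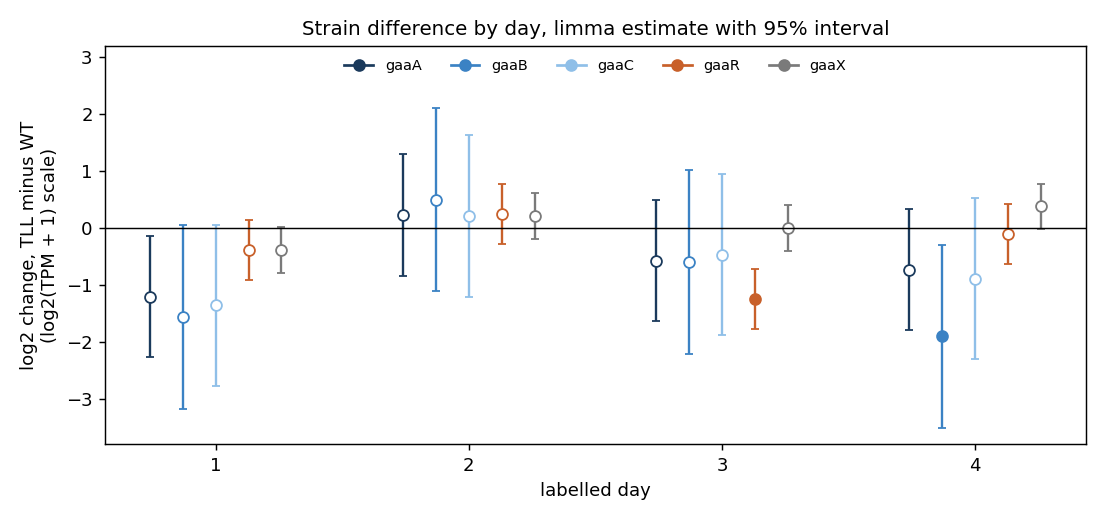
Log2 change between strains (TLL minus WT, log2(TPM + 1) scale) of the 5 genes on each labelled day, with 95% limma intervals from the fit on all 24 libraries. Filled points are called, which are gaaR at day 3 (-1.25) and gaaB at day 4 (-1.90), and open points are not.

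Set across labelled days, TLL day 4 against WT day 3 called gaaB at -1.99 (SE 0.77, limma adjusted p = 0.0397) and gaaR at -0.93 (SE 0.25, limma adjusted p = 0.00503), 2 of 5 genes, both lower in TLL, against 48.1% of all genes. The call of gaaB was lost in 5 of the 6 fits that left out a library. Groups did not overlap for gaaA, gaaB, gaaC and gaaR, against 69.4% of all genes. TLL day 3 against WT day 4 was called by limma in 0 of 5 genes (0 passed unadjusted p under 0.05), against 11.8% of all genes (25.4% unadjusted). There gaaB and gaaR did not overlap between groups, against 40.5%, with log2 changes of -0.51 (95% interval -2.12 to 1.10) and -0.43 (95% interval -0.96 to 0.097). These comparisons share libraries with those by day.

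Of the 5 genes, 1 had a strain difference that varied by day, gaaR (limma F test of the interaction, adjusted p = 0.00736), against 63.1% of all genes. The adjusted p was 0.328 for gaaA, 0.197 for gaaB, 0.478 for gaaC and 0.0860 for gaaX. Without WT day 1 replicate 1, or without both day 1 libraries that lay apart, all 5 genes were called, against 71.2% and 80.6% of all genes.

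Ratios between 2 genes of one library are free of the library total, apart from the pseudocount of 1 TPM. On the log2(TPM + 1) scale the level of gaaR lay below that of gaaX in 23 of 24 libraries, with a median difference of -1.22. The exception was WT day 3 replicate 2, at 0.046, beside -0.16 and -0.67 in replicates 1 and 3. In TLL day 3 the difference was -1.21, -1.82 and -1.51. Averaged over days the strains differed by -0.43 (exact two-sided permutation test of strain within day, p = 0.0327, adjusted over 3 ratios 0.0981), which did not pass. The strains overlapped in this ratio at days 1 and 2 and not at days 3 and 4. The share of all gene pairs without overlap was not computed. Of single genes, 69.0% and 68.1% did not overlap between strains on days 3 and 4. Without the 2 day 1 libraries that lay apart the difference was -0.46 and passed (exact permutation, adjusted p = 0.0269), as it did without TLL day 1 replicate 3 alone (-0.52, exact permutation, adjusted p = 0.0152). With a pseudocount of 5 TPM it was -0.26 and did not pass (exact permutation, adjusted p = 0.128).

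Between gaaA and gaaC the difference stayed within -0.27 to 0.75 over all 24 libraries, with means per group of 0.045 to 0.66. The strains differed by 0.052 (exact permutation, adjusted p = 0.675) and overlapped on all 4 days. Between gaaA and gaaB it ranged from -1.69 to 0.41, and the strains differed by 0.32 (exact permutation, adjusted p = 0.226). At day 4 it was -0.11, -0.41 and -0.58 in TLL and -1.43, -1.48 and -1.68 in WT, so gaaB was lower relative to gaaA in TLL, and this was the only day without overlap. Among single genes 68.1% did not overlap at day 4, and no share over gene pairs was computed. TLL day 1 replicate 3 was the 1 library where gaaA stood above gaaB.

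**Figure D4:**
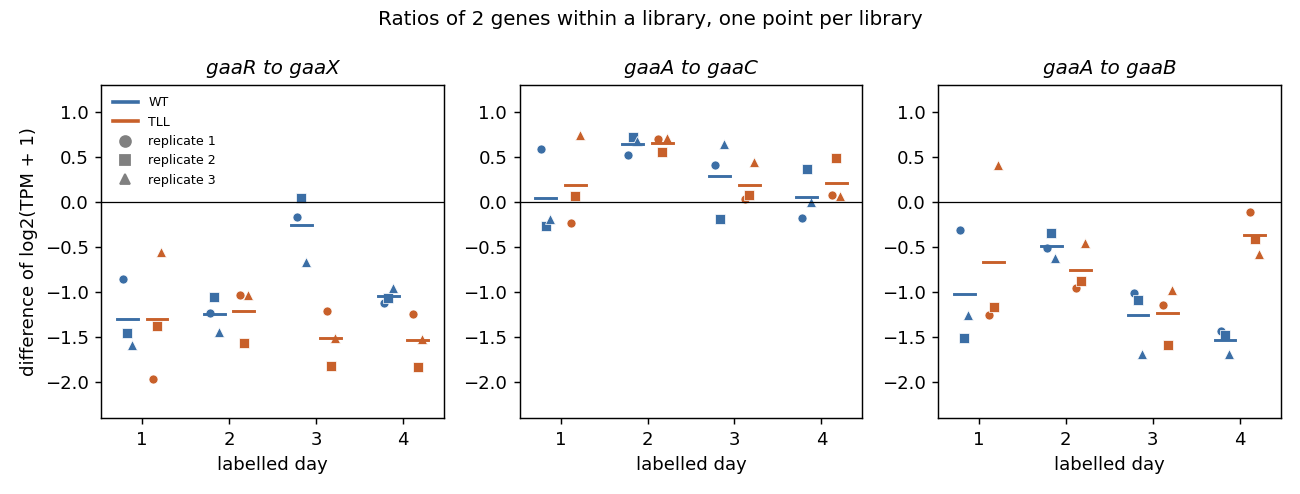
Difference of log2(TPM + 1) between 2 genes of the same library, for gaaR to gaaX, gaaA to gaaC and gaaA to gaaB, by labelled day, with a marker shape per replicate number and bars at group means (n = 3). WT day 3 stands highest for gaaR to gaaX (-0.67 to 0.046), and TLL day 4 lies above WT day 4 for gaaA to gaaB.

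The 3 enzyme genes kept close company across libraries, and the regulators were less like them. Over the 24 libraries gaaA and gaaC correlated at r = 0.966 (rho = 0.810) on log2(TPM + 1), and each was the gene most like the other among 9557. For gaaB the gene most like it was NRRL3_01143 (r = 0.943, rho = 0.836), which ranged from 0.06 to 11.55 TPM, with gaaC at rank 2 (r = 0.942) and gaaA at rank 5 (r = 0.924). These values lean on the high day 1 libraries. Without WT day 1 replicates 2 and 3, the highest for gaaA, r between gaaA and gaaC was 0.893. Over the 18 libraries of days 2 to 4, r was 0.782 between gaaA and gaaC, 0.743 between gaaA and gaaB and 0.786 between gaaB and gaaC, and gaaC ranked 167 by likeness to gaaA. The correlations are descriptions, since the libraries of a group share their condition.

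Over all 24 libraries gaaR correlated with gaaA, gaaB and gaaC at r = -0.10, -0.094 and -0.13, and gaaX at 0.10, 0.15 and 0.13. Over days 2 to 4 the values were 0.25, 0.29 and 0.38 for gaaR and -0.46, -0.46 and -0.69 for gaaX. The adjacent pair gaaR and gaaX correlated at r = 0.16. The gene most like gaaR was NRRL3_11745 (r = 0.849, 42.84 to 306.01 TPM) and that most like gaaX was NRRL3_00657 (r = 0.777, 35.17 to 106.38 TPM). The files do not pair these IDs with names.

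**Figure D5:**
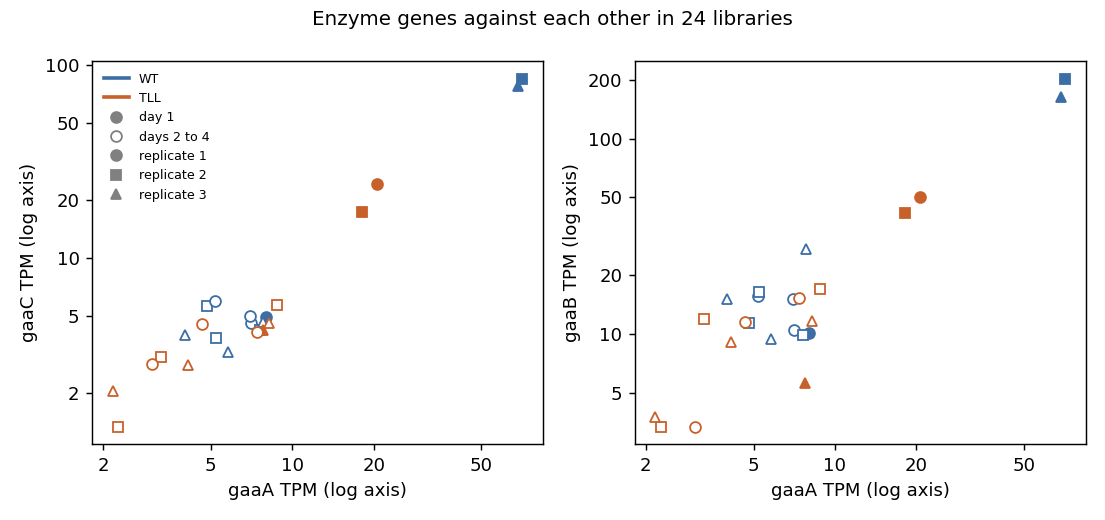
TPM of gaaC and of gaaB against gaaA (log axes) in the 24 libraries, filled for day 1 and open for days 2 to 4, with a marker shape per replicate number. The 4 high day 1 libraries lie apart at the upper right, the other 2 among the later days.

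The IDs just before and after these genes gave a view of their surroundings. Of the 6, 5 passed the filter on low values and 0, 1, 3 and 3 of these were called between strains on days 1 to 4, against 7.31%, 9.71%, 47.1% and 54.1% of all genes. In WT day 1 the ID after gaaA, NRRL3_05651, stood at 51.53 to 53.23 TPM, a narrow range where gaaA spanned 7.99 to 70.8 TPM, and it correlated with gaaA at r = -0.43. The ID before gaaC, NRRL3_05648, stayed between 0 and 1.51 TPM in all libraries. NRRL3_06889, just before gaaB, correlated with it at r = 0.70 and was at 27.22 to 54.02 TPM in WT day 1. The other 3 correlated with their nearest member at 0.12 to 0.30.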

How the data were processed

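RNA came from hyphae of 2 strains on 4 labelled days. The authors deposited 1 table of TPM values, with 24 columns matched to samples by library name and 0 columns of no sample. The submitters' processing notes name HISAT2, StringTie and Cufflinks without roles, and the deposited table's name refers to RSEM. The genome build, and which tool made the values, is not given in the sources used here. Of the IDs, 0 matched the RefSeq gene table, so no sequence is shown. Since TPM is relative, a rise of abundant genes lowers all others.

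Genes with at least 1 TPM in 3 libraries (9558) were fitted as log2(TPM + 1) with a mean per group (16 residual degrees of freedom, limma 3.58.1, R 4.3.3, mean-variance trend). This scale makes the fold changes of weakly expressed genes look smaller. Tests were two-sided. F tests had 3 degrees of freedom. Ratios were tested over 160000 regroupings of strain within day. Figures used matplotlib 3.10.9. The fit and the permutation test were tested on simulated data with the same spread in every group, so the wider spread of day 1 was not simulated. Alternatives were other pseudocounts (0.1 and 5 TPM), filters, scalings, library weights, a replicate block and left-out libraries. Besides the members, IDs were named as the single most correlated gene or a neighbour in ID order. The members and lists were chosen with earlier results of these data known.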

Additional observations from a re-analysis of the deposited data

Results flagged for a closer look

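The strain difference of the activator gene gaaR changed with the day (limma F test of the interaction, adjusted p = 0.00736), with log2 changes, TLL minus WT, of -0.38, 0.24, -1.25 and -0.11 on days 1 to 4. The same test called 63.1% of all genes, so such a call was common in these data. The call of gaaR stayed without any one of the 24 libraries (limma adjusted p up to 0.0264), where 58.2% to 72.5% of all genes were called.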

How the results depend on the processing

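The call of gaaR at day 3 and in the interaction held in every fit run. Most other counts moved with the treatment of day 1. Members called, of 5, are given below where they changed by over 1.5 times, with the share of all genes called in the same fit.

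With library weights, a fit that did not fully converge, they were 5, 1, 4 and 4 between strains on days 1 to 4 (0, 0, 1 and 1 as reported), 5 and 2 for TLL day 4 against WT day 3 and TLL day 3 against WT day 4 (2 and 0 as reported), 5 for the interaction (1) and 5 across days in TLL (3). Of all genes 49.8%, 55.3%, 71.4% and 71.1% were called on days 1 to 4, 72.3% and 43.1% across labelled days, 90.5% for the interaction and 97.7% across days in TLL. On the compared libraries alone they were 3 at day 3, 3 at day 4, and 4 and 1 across labelled days (67.1%, 66.1%, 67.8% and 24.3% of all genes). There 0 genes of the whole table were called at day 1, with 620 at an unadjusted p under 0.05. Without both day 1 libraries that lay apart they were 5, 4 and 4 on days 1, 3 and 4, 5 for TLL day 4 against WT day 3, 5 for the interaction and 5 across days in TLL (25.9%, 60.1%, 65.3%, 61.9%, 80.6% and 89.7% of all genes), and the strain difference of the gaaR to gaaX ratio was -0.46 and passed. Without day 1 they were 3 at day 3, 4 at day 4 and 5 for TLL day 4 against WT day 3 (60.5%, 65.9% and 62.1% of all genes). The last 2 fits were chosen after seeing the data, as was one without WT day 3 and TLL day 4, which changed no count of members. A pseudocount of 5 TPM gave 0 at day 4 (54.6% of all genes) and 1 for TLL day 4 against WT day 3 (48.1%). No filter gave 0 at day 4 (46.9%). By up to 1.5 times, TLL day 4 against WT day 3 gained gaaA with a pseudocount of 0.1 TPM, median-of-ratios scaling or quantile normalization (3). Of all genes 46%, 47% and 49.2% were called in these fits. Across days in TLL the count was 2 with a pseudocount of 5 TPM (80.6% of all genes) or no filter (70.7%). It was 4 with a filter at 5 TPM (83.8%) or without the trend (80.8%). Across days in WT it was 5 with library weights (93.7%) or without both libraries (87.5%).

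Leaving out 1 library gave 0 to 4 members at day 1, 0 at day 4, 1 to 2 for TLL day 4 against WT day 3, 1 to 5 for the interaction (5 without WT day 1 replicate 1) and 1 to 4 across days in TLL. Of all genes, in the same order, 2.17% to 23.1%, 46.2% to 50.9%, 39.7% to 41.7%, 58.2% to 72.5% and 75.8% to 84.4% were called. The ends of these ranges do not always belong to the same fit. At day 1 the fit with 4 members called had 13.5% of all genes called, and the fit with 23.1% had 1 member. For the interaction 5 members went with 71.2%, and 72.5% with 1 member. The ratio difference ranged from -0.52 to -0.34 for gaaR to gaaX and from -0.017 to 0.12 for gaaA to gaaC. Over the whole table the calls at day 1 ranged from 207 to 2207 (699 as reported) when 1 library was left out, and at day 2 from 240 to 1285 (928).

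With the replicate block gaaB was not called at day 4 (0 members, limma adjusted p = 0.0522), where 54.1% of all genes were called. Across days in TLL 2 members, gaaA and gaaX, were called, against 81% of all genes. The block changed no other of these counts by over 1.5 times. Same-numbered WT and TLL libraries of a day deviated together in 2 of 12 pairs (r over 0.1, range -0.64 to 0.44). Of the 24, 4 agreed best with their own number. Pairing across days was not tested. TPM carries no depth, so counting error is unknown.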
